A study of Mus musculus with 17 samples.

Results

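Trem2, Tyrobp, Gpnmb, Cd9, Cd63, Spp1, Fabp5 and Lgals3 are genes by which lipid-associated and scar-associated macrophages are recognised in mouse and human tissue. The 8 genes were taken by symbol, through their Ensembl identifiers, from a deposited table of 52545 genes, and 8 of 8 were found. None of the 8 was listed at 0 in any library, and 8 of 8 passed the filter on low values (at least 10 normalized counts in 5 or more libraries), as did 18624 genes in all.

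Lipid-associated macrophages arise largely from recruited monocytes where dying cells and excess lipid accumulate, as in fatty liver, obese adipose tissue and atherosclerotic plaque. TREM2 is a surface receptor for lipids and lipoproteins. It has no signalling tail of its own and works through the adaptor TYROBP (DAP12), which recruits the kinase SYK. Cells with active TREM2 carry a set of lysosomal, lipid-handling and secreted proteins to which the other members belong. Several of these genes are also used outside macrophages: osteopontin (Spp1) in bile duct cells, and the tetraspanins Cd9 and Cd63 in many cell types.

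Each of 17 libraries held liver RNA of 1 mouse, a male of strain C57BL/6J, 32 weeks old, and the liver tissue was non-tumorous. The 5 Regular diet mice were untreated. The 6 Vehicle Control mice had been given 100 mg/kg of the liver carcinogen DEN once, in week 1, ate CDA-HFD (a high-fat diet without choline) and received PBS intraperitoneally once a week for 16 weeks. The 6 CLDN1 mAb mice differed from these only in that 500 µg of an antibody against claudin-1 was injected and not PBS. Every treated mouse had carcinogen, diet and injections, whose shares in a difference from regular diet cannot be told apart. The library codes of the regular diet mice (31 to 35) also form a block of their own, which cannot be told apart from the group, whereas vehicle and antibody mice share the codes 25 to 30 and 36 to 42.

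Values are counts normalized by the authors with cuffnorm, called normalized counts below, and their totals ran from 29650000 to 74610000 per library. Low values rose in steps, with 97.7 to 98.2% of them within 0.05 steps of a whole multiple, and the step size gave an estimated depth of 27690000 to 59510000 fragments per library. Not all values were whole multiples, so this depth is uncertain. As a check of the tissue, Cps1, the urea cycle enzyme of hepatocytes, averaged 250300 normalized counts in regular diet and 50390 in vehicle livers. Albumin (Alb) was listed at 0 in 17 of 17 libraries, as an abundant gene can be when its estimate fails. Some libraries stood apart. Regular diet mouse 1 had the highest total, and vehicle mice 3, 4 and 6 had the lowest totals, 29650000 to 31300000 against 35370000 to 42750000 in the other vehicle and antibody mice. In these 3 vehicle livers the summed hepatocyte markers were at 888000 to 1340000 normalized counts against 2420000 to 3510000 in the other vehicle livers. The differences between groups, the spreads, the correlations between members and the list counts that follow are also given without vehicle mice 3, 4 and 6; the per-kilobase levels and the genes of most similar pattern are not.

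The start regions of Trem2, Gpnmb and Spp1 are shown because these genes differed widely between the groups and carry, in these windows, a match to a motif of factors active in macrophages. RefSeq promoter windows (GRCm38.p6, 250 bases before to 50 after the start) were found for 6 of the 8 genes, not for Tyrobp and Fabp5. They were searched on both strands for TGANTCA (AP-1), GAGGAAGT (PU.1 and other ETS factors), CACGTG (the E-box within the lysosomal CLEAR element), TCATGTG (the M-box core of MITF) and the NF-kappaB motif. Sequences are 5′ to 3′ on the plus strand, with the motif in capitals. They cover chr17:48346151-48346400, chr6:49036418-49036537 and chr5:104434861-104435110.
Trem2: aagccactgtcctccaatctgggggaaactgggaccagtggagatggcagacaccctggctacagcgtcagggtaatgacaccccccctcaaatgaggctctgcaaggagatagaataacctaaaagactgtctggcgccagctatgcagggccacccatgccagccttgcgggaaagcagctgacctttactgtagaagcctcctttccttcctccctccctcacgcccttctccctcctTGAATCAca
Gpnmb: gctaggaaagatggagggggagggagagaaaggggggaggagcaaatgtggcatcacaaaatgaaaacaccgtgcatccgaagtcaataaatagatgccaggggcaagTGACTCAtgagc
Spp1: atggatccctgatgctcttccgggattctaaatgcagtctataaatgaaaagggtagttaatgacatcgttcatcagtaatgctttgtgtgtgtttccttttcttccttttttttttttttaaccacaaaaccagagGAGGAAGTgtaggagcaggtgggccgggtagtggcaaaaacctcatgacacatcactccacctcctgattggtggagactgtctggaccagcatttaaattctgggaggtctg
The AP-1 letters stand at -9 to -3 from the start of Trem2 and at 9 to 15 after the RefSeq start of Gpnmb, and the ETS letters at -113 to -106 from the start of Spp1. Of 32851 RefSeq promoter windows of the same length, 7.81% hold the AP-1 letters and 3.2% the ETS letters. The window of Cd9 holds the NF-kappaB letters at -229 to -220, as do 1.63% of windows, and those of Cd63 and Lgals3 hold none of the 5 motifs. These are matches of letters and no test of binding.

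In vehicle against regular diet, all 8 genes were higher in vehicle livers. The ratio of group means ran from 2.97 for Fabp5 to 642 for Gpnmb, and the log2 differences, on the scale of log2(normalized count + 1), had a median of 4.72 against 0.04 over all genes tested. An adjusted p under 0.05 (limma, Benjamini-Hochberg over all genes) with a higher level in vehicle was reached by 29.8% of the genes tested. In bulk tissue, more cells of a type and more RNA per cell cannot be told apart. Each gene is described below by its values in every regular diet mouse and the lowest, median and highest value in the larger groups. The share of all genes whose groups did not overlap was not counted, here or in the later comparisons. A lack of overlap therefore only describes the gene named.

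**Figure D1:**
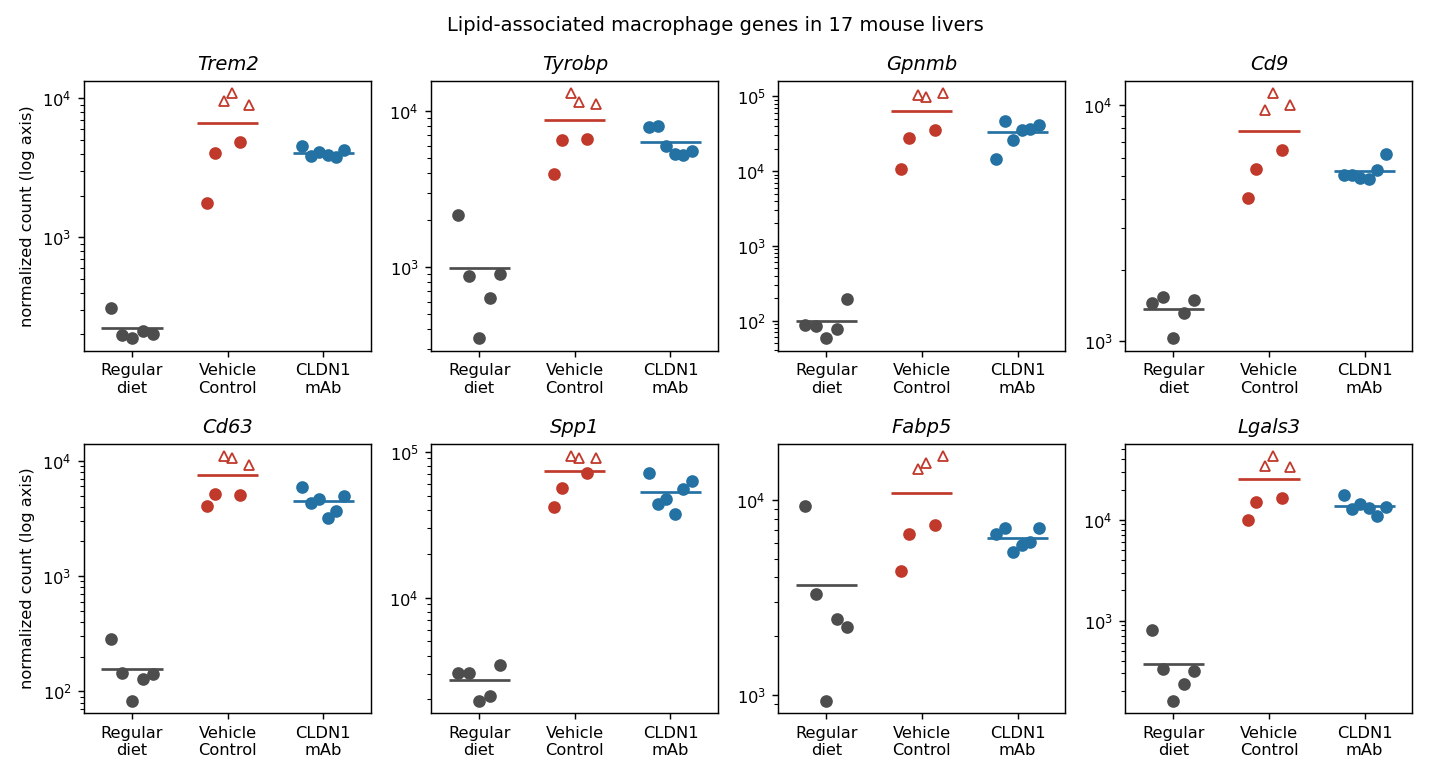
Normalized counts of the 8 genes (log axis) in each of 17 livers, with mice in order of their number within a group and a line at the group mean. Open triangles mark vehicle mice 3, 4 and 6, which have the lowest deposited totals and lie above the other 3 vehicle mice for each gene.

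Trem2 (chromosome 17, 48346401 to 48354147, plus strand) encodes the receptor itself. In regular diet mice 1 to 5 it was at 309.5, 197, 187, 212 and 203 normalized counts. Vehicle livers ran from 1762 to 10879 with a median of 6861, and antibody livers from 3772 to 4572 with a median of 4001. Every vehicle liver lay above every regular diet liver, the lowest at 5.69 times the highest of regular diet. The ratio of means was 30.1, and the log2 difference was 4.69 ± 0.34 (SE; limma adjusted p = 9.72e-09). Between vehicle mice the level varied 6.18-fold, and between antibody mice 1.21-fold.

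Tyrobp (chromosome 7, 30413760 to 30417585, plus strand) encodes the adaptor that TREM2 shares with other activating receptors of myeloid and NK cells. Regular diet mice 1 to 5 had 2169, 882, 348, 630.3 and 909 normalized counts. The range was 3943 to 13049 in vehicle (median 8835) and 5220 to 8017 in antibody livers (median 5772). Mouse 1 of regular diet stood above its group, but still below the lowest vehicle liver. The log2 difference between vehicle and regular diet was 3.29 ± 0.37 (SE; limma adjusted p = 1.10e-06), a ratio of means of 8.89.

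Gpnmb (chromosome 6, 49036546 to 49070929, plus strand), a transmembrane glycoprotein of lysosomes and melanosomes and a target of the MiT/TFE factors, had the widest range. It was at 88.4, 84.0, 57.8, 77.1 and 194 normalized counts in regular diet mice 1 to 5. Vehicle livers ran from 10545 to 109791 with a median of 66226, and antibody livers from 14656 to 47274 with a median of 36154. The lowest vehicle liver held 54.4 times the highest regular diet value. The log2 difference was 9.01 ± 0.52 (SE; limma adjusted p = 9.15e-10). Among the 8 genes Gpnmb contributed 0.5 to 2.2% of the summed normalized counts in regular diet livers and 13.1 to 37.9% in vehicle livers.

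Cd9 (chromosome 6, 125460266 to 125494791, minus strand) and Cd63 (chromosome 10, 128900989 to 128912822, plus strand) encode tetraspanins, membrane organisers of the cell surface and of late endosomes, respectively. Cd9 was at 1440, 1534, 1020, 1306 and 1488 normalized counts in regular diet mice 1 to 5, at 4055 to 11261 in vehicle (median 7988) and at 4862 to 6240 in antibody livers (median 5065). Cd63 was at 285, 146, 82.3, 128 and 142 in regular diet, at 4073 to 11011 in vehicle (median 7181) and at 3194 to 5974 in antibody livers (median 4454). Neither gene overlapped between vehicle and regular diet, but their changes were of different size, 2.44 ± 0.22 for Cd9 (limma adjusted p = 9.29e-08) and 5.58 ± 0.30 for Cd63 (limma adjusted p = 5.50e-10) on the log2 scale. Whether reads were counted by strand was not stated. The transcripts Gm28809 and Gm26728, which overlap Cd9 on the opposite strand, reached at most 21.2 and 168 normalized counts. The pseudogene Cd63-ps was listed at 0 in 5 of 5 regular diet livers, at 11.7 to 91.6 in vehicle and at 3.7 to 35.4 in antibody livers, far below Cd63 in the same groups.

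Spp1 (chromosome 5, 104435118 to 104441050, plus strand), which encodes the secreted, integrin-binding osteopontin, was at 3039, 3026, 1947, 2119 and 3443 normalized counts in regular diet mice 1 to 5. Vehicle livers held 41974 to 93395 (median 80546) and antibody livers 37167 to 71955 (median 51420). No vehicle liver came near the regular diet range, with the lowest at 12.2 times the highest of regular diet. The log2 difference was 4.74 ± 0.24 (SE; limma adjusted p = 2.23e-10). Gm42793, a transcript that overlaps Spp1 on the same strand, reached at most 179 normalized counts.

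Lgals3 (chromosome 14, 47367751 to 47386160, plus strand) encodes galectin-3, a beta-galactoside-binding lectin that is secreted and also marks damaged lysosomes. It was at 806, 333, 159, 234 and 315 normalized counts in regular diet mice 1 to 5. The range was 9965 to 42993 in vehicle (median 24879) and 10966 to 17693 in antibody livers (median 13359). The groups were far apart, with a ratio of means of 68.7 and a log2 difference of 6.13 ± 0.38 (SE; limma adjusted p = 1.77e-09).

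Fabp5 (chromosome 3, 10012548 to 10016607, plus strand), a cytosolic carrier of fatty acids, was the least separated. Regular diet mice 1 to 5 had 9357, 3287, 926, 2455 and 2230 normalized counts. Vehicle livers ran from 4302 to 16810 (median 10934) and antibody livers from 5425 to 7206 (median 6387). Regular diet mouse 1 lay above 3 of 6 vehicle livers and above all 6 antibody livers. The log2 difference of vehicle from regular diet was 1.81 ± 0.44 (SE; limma adjusted p = 0.00242). It was 2.25 without regular diet mouse 1 (limma adjusted p = 8.13e-05) and 1.12 without vehicle mice 3, 4 and 6 (limma adjusted p = 0.0914), where the call was lost. The 7 other genes passed the test without those 3 mice, at 1.95 for Cd9 to 7.88 for Gpnmb. That fit called 6259 genes in place of 9400 over both directions.

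The direction of these changes did not depend on the scalings tried. With each library set to the same total, the median log2 difference over all genes went from 0.04 to 0.65, and the split of calls from 5547 higher and 3853 lower (20.7% of genes tested) to 9369 higher and 1264 lower. With quantile normalization it was 4447 higher and 5223 lower. All 8 genes were called higher under each of these and under median-of-ratios scaling.

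Per kilobase of exon, Spp1 was the most abundant of the 8 in each group, and the order below it differed between groups. In regular diet livers Spp1 (1647 ± 393 normalized counts per kilobase, SD, n = 5), Tyrobp (1481 ± 1047) and Fabp5 (1024 ± 925) did not differ beyond their spread. Cd9 (664 ± 101) and Lgals3 (199 ± 137) followed. Trem2 (44.8 ± 10.1), Cd63 (42.5 ± 20.7) and Gpnmb (15.4 ± 8.2) were lowest. In vehicle livers Spp1 (44875 ± 12860, SD, n = 6) stood above the rest by more than the spread. Lgals3 (13656 ± 7125), Tyrobp (13160 ± 5345) and Gpnmb (9876 ± 6827) came next and lay within their spread of each other. Each neighbouring pair among Cd9 (3806 ± 1410), Fabp5 (3045 ± 1494), Cd63 (2040 ± 845) and Trem2 (1348 ± 733) also lay within its spread. Gpnmb thus went from the lowest of the 8 to the fourth, and Trem2 was the lowest in vehicle livers. In antibody livers the order was Spp1 (32213 ± 7808, SD, n = 6), Tyrobp (9487 ± 1930), Lgals3 (7407 ± 1213), Gpnmb (5144 ± 1780), Cd9 (2565 ± 250), Fabp5 (1796 ± 202), Cd63 (1208 ± 269) and Trem2 (822 ± 61).

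Antibody and vehicle livers were compared next. No gene of the 8 passed the test, and no gene in the table did: 0% of the genes tested were called by limma, while 1391 had an unadjusted p under 0.05. The 8 log2 differences were all below 0, from -0.38 (Tyrobp) to -0.71 (Lgals3), with a median of -0.54. Over all genes tested the median was -0.05, and 55.7% of genes were below 0. For each of the 8 genes, 6 of 6 antibody livers were below the vehicle mean and median, and the ranges of the groups overlapped. How many of all genes show this pattern was not counted, so it cannot be called particular to the 8.

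Trem2 differed by -0.47 (95% confidence interval -1.16 to 0.22; limma adjusted p = 0.712) and Tyrobp by -0.38 (-1.12 to 0.36; 0.777). Gpnmb differed by -0.60 (-1.65 to 0.45; limma adjusted p = 0.754), Fabp5 by -0.60 (-1.49 to 0.29; 0.715) and Lgals3 by -0.71 (-1.48 to 0.06; 0.659). These 5 intervals include 0. Spp1 differed by -0.46 (-0.94 to 0.03; limma adjusted p = 0.659). The intervals of Cd9 (-0.48, from -0.92 to -0.04) and Cd63 (-0.67, from -1.28 to -0.07) did not include 0, yet both had a limma adjusted p of 0.659.

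**Figure D2:**
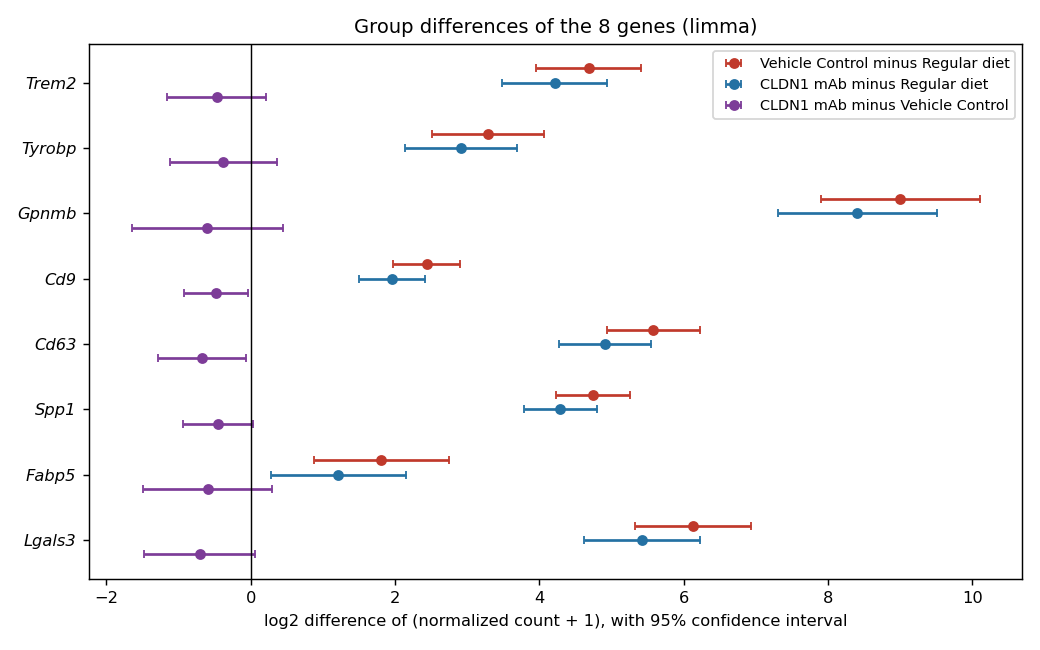
Log2 differences between groups with 95% confidence intervals (limma, 17 livers) for each of the 8 genes. The comparisons with regular diet lie to the right of 0 for all 8 genes, while antibody minus vehicle lies between -0.71 and -0.38; the comparisons share groups of mice.

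The differences depended on vehicle mice 3, 4 and 6, which held the 3 highest vehicle values of each of the 8 genes. Leaving them out, a choice made after the values were seen, therefore had to raise antibody minus vehicle. Trem2 was at 9603, 10879 and 8890 normalized counts in these mice and at 1762, 4036 and 4832 in vehicle mice 1, 2 and 5. The antibody livers lay among the latter. Without mice 3, 4 and 6 the log2 difference of antibody from vehicle was 0.32 for Trem2, 0.17 for Tyrobp, 0.53 for Gpnmb, 0.09 for Fabp5 and 0.01 for both Cd9 and Lgals3, and it stayed below 0 for Cd63 (-0.12) and Spp1 (-0.09). The limma adjusted p was 0.9999 for all 8. The 3 mice also had the highest summed pan-macrophage markers (222000 to 248000 normalized counts against 74900 to 146000 in vehicle mice 1, 2 and 5 and 121000 to 184000 in antibody mice), and their summed hepatocyte markers were below those of each antibody mouse (888000 to 1340000 against 2080000 to 3520000). The part of these differences in the result was not tested.

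Weighting libraries by their estimated quality changed the call. With limma's array weights 5310 genes, all 8 members among them, passed between antibody and vehicle, the members lower by -0.81 (Cd9) to -1.24 (Lgals3), with limma adjusted p-values of 0.00369 (Trem2) to 0.0302 (Gpnmb). These weights were 1.82, 1.88 and 1.34 for vehicle mice 3, 4 and 6 and 0.175, 0.383 and 0.785 for vehicle mice 1, 2 and 5, so the weighted vehicle mean lay close to the former. Within library codes 25 to 30 (3 mice a group) the antibody-minus-vehicle log2 difference was 0.02 for Trem2 and 0.05 for Tyrobp and from -0.19 to -0.32 for the other 6 genes. Within codes 36 to 42 it was below 0 for all 8, from -0.72 (Spp1) to -1.20 (Lgals3). Of the vehicle mice with the highest values, mouse 3 falls in the first block and mice 4 and 6 in the second. The part of this in the difference between the blocks was not tested.

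The spread between mice was also compared, a comparison chosen after the values were seen. Over all 6 vehicle mice, Trem2, Tyrobp, Cd9, Cd63, Fabp5 and Lgals3 varied more than over the 6 antibody mice. No such difference passed without vehicle mice 3, 4 and 6, but this step takes out the highest vehicle values of each gene and leaves 3 vehicle mice. The SD of the log2 values of Trem2 was 1.00 in vehicle and 0.11 in antibody mice, a ratio of 9.57 (exact permutation p = 0.0022, 924 regroupings). As large a ratio was found for 0.09% of the genes tested. For Fabp5 the ratio was 4.89 (exact permutation p = 0.0022; 1.1% of genes), for Cd9 4.38 (0.0065; 1.7%) and for Lgals3 3.65 (0.0022; 3.36%). Tyrobp (2.34, exact permutation p = 0.0455) and Cd63 (1.95, 0.0303) also had a p under 0.05. Ratios as large as theirs were common, in 14.15% of genes for Tyrobp and 22.87% for Cd63. Gpnmb (2.24, exact permutation p = 0.0844) and Spp1 (1.32, 0.688) had a p above 0.05, with as large a ratio in 16.05% and 47.78% of genes. These p-values are unadjusted. Over all genes the median ratio was 1.28, and 66.9% of genes had the larger SD in vehicle. Without vehicle mice 3, 4 and 6 the ratio was 7.41 for Trem2 (exact permutation p = 0.25, 84 regroupings; 0.2% of genes as large), 2.54 for Cd9 and for Fabp5, 1.71 for Lgals3, 1.52 for Gpnmb, 1.51 for Tyrobp and 1.09 for Spp1. It turned to 0.57 for Cd63. As large a ratio was then found in 8.71% of genes for Cd9 and 8.73% for Fabp5. For Lgals3, Gpnmb, Tyrobp, Spp1 and Cd63 that share was 21.94 to 79.33%. The exact permutation p was 0.25 to 0.905 over the 8 genes, and the median ratio over all genes was 1.01. In regular diet mice the log2 SD of Fabp5 (1.20), Tyrobp (0.957), Lgals3 (0.863) and Cd63 (0.638) was no smaller than over all 6 vehicle mice (0.803, 0.66, 0.834 and 0.629). That of Trem2 (0.289), Gpnmb (0.645), Cd9 (0.238) and Spp1 (0.361) was smaller (1.00, 1.37, 0.581 and 0.465 in vehicle). These differences from regular diet were not tested.

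**Figure D3:**
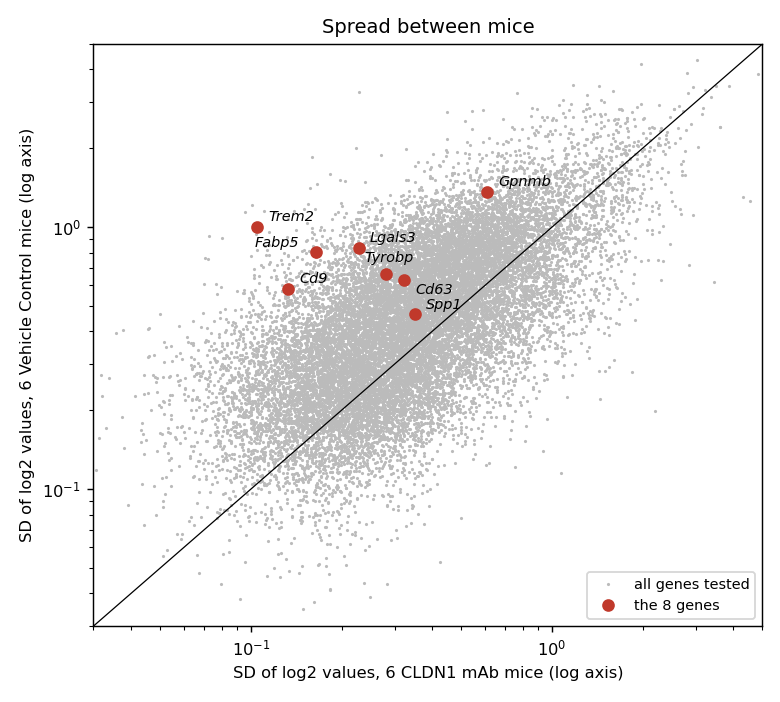
SD of log2(normalized count + 1) between the 6 antibody mice (horizontal, log axis) and the 6 vehicle mice (vertical, log axis) for all 18624 genes tested (grey) and the 8 genes (red), with the line of equal SD. The 8 genes lie above the line, Trem2 farthest at a ratio of 9.57 and Spp1 nearest at 1.32; without vehicle mice 3, 4 and 6 Cd63 falls below it.

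Against regular diet, the antibody livers were higher for all 8 genes, in a table in which 24.8% of genes were called higher. This comparison shares its groups with the other 2. The log2 differences were 8.41 for Gpnmb, 5.42 for Lgals3, 4.91 for Cd63, 4.29 for Spp1, 4.21 for Trem2, 2.91 for Tyrobp and 1.96 for Cd9, with limma adjusted p-values of 1.19e-09 (Spp1) to 6.35e-06 (Tyrobp). The lowest antibody liver held from 2.41 (Tyrobp) to 75.5 times (Gpnmb) the highest regular diet value in these 7 genes. The share of all genes without overlap was not counted here either. Fabp5 differed by 1.21 (limma adjusted p = 0.0378), a call that was lost when any of regular diet mice 3, 4 and 5 or antibody mice 1, 2, 4, 5 and 6 was left out, with 0.82 (limma adjusted p = 0.126) as the lowest value.

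General macrophage markers also moved, so each gene was set against the mean log2 level of 8 of them (Adgre1, Csf1r, Cd68, Itgam, Fcgr1, Mertk, Aif1 and Laptm5). That mean, with its SD, was 9.0 ± 0.51 in the 5 regular diet livers, 11.43 ± 0.73 in the 6 vehicle livers and 11.05 ± 0.26 in the 6 antibody livers. Relative to it, Gpnmb was higher in vehicle than in regular diet by 6.58, Lgals3 by 3.71, Cd63 by 3.16, Spp1 by 2.32 and Trem2 by 2.26. Each had an exact permutation p of 0.0022 (two-sided, 462 regroupings, unadjusted) and no overlap between the groups. Tyrobp was higher by 0.87 (exact permutation p = 0.0216). Cd9 differed by 0.02 (exact permutation p = 0.926) and Fabp5 by -0.61 (exact permutation p = 0.0758), so their distance from the markers did not differ detectably between these groups. Of all genes tested, 4.85% were higher by this measure with a p under 0.05 and 79.3% lower. Without vehicle mice 3, 4 and 6, Gpnmb (6.07), Lgals3 (3.60), Cd63 (3.21), Spp1 (2.57) and Trem2 (2.08) kept an exact permutation p under 0.05, each 0.0179 over 56 regroupings, and Tyrobp lost it (0.94, exact permutation p = 0.107).

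The reference decided part of this. Against Cd68 alone, the lysosomal marker that itself was higher by 4.12 in vehicle, Trem2 (0.56, exact permutation p = 0.0931) and Spp1 (0.62, 0.130) no longer passed, and Tyrobp (-0.83) and Cd9 (-1.68, both exact permutation p = 0.0043) and Fabp5 (-2.31, exact permutation p = 0.0022) were lower. Against Adgre1 and Csf1r, Cd9 was higher (1.33, exact permutation p = 0.0022) and Fabp5 differed by 0.70 (0.119). Gpnmb, Lgals3 and Cd63 were higher under each of the 3 references.

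**Figure D4:**
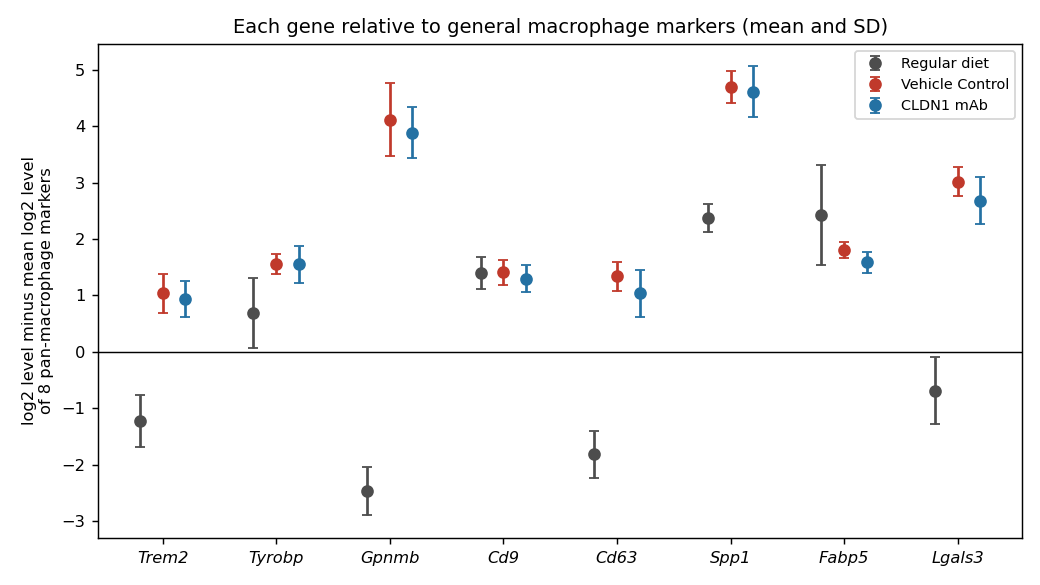
Log2 level of each gene minus the mean log2 level of 8 pan-macrophage markers, as mean and SD per group. Gpnmb, Lgals3, Cd63, Spp1 and Trem2 lie apart between regular diet and the other groups, while Cd9 has its 3 means between 1.30 and 1.41.

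Between antibody and vehicle, the same measure differed by -0.34 (Lgals3) to -0.01 (Tyrobp). Fabp5 alone had an unadjusted p under 0.05 (-0.23, exact permutation p = 0.0368), where 0.37% of genes were lower and 2.26% higher by this rule, and it was lost against either other reference (-0.11 against Cd68, exact permutation p = 0.452; -0.37 against Adgre1 and Csf1r, 0.0758). It was also lost without vehicle mouse 2, 4 or 6, without antibody mouse 2, 3, 5 or 6 and without vehicle mice 3, 4 and 6 together (-0.15, exact permutation p = 0.25). Without antibody mouse 1 Cd63 (-0.44, exact permutation p = 0.0325) and Lgals3 (-0.46, 0.0346) passed as well. Between antibody and regular diet, Gpnmb (6.36), Lgals3 (3.37), Cd63 (2.86), Spp1 (2.24) and Trem2 (2.16) were higher with no overlap (exact permutation p = 0.0022 each). Tyrobp was higher by 0.86 (exact permutation p = 0.026) and Fabp5 was lower (-0.84, exact permutation p = 0.013), where 4.78% of genes were higher and 78.5% lower.

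The levels of the 8 genes were compared across mice. Over the 28 pairs of genes, Pearson's r of the log2 values was 0.916 to 0.993 in the 6 vehicle mice and -0.842 to 0.919 in the 6 antibody mice, where 21 of 28 were above 0. Over all 12 mice r was 0.633 to 0.976 and Spearman's rho 0.476 to 0.965, with permutation p-values adjusted over the 28 pairs under 0.05 for 28 pairs by r and for 24 by rho. Vehicle mice 3, 4 and 6 form a cluster of high values. Without them the median r went from 0.898 to 0.628 and its range to -0.25 to 0.857. Without the 2 mice farthest from the median r was 0.455 to 0.981, and it was 0.524 to 0.983 within library codes 25 to 30 and 0.78 to 0.998 within codes 36 to 42. Both code blocks hold mice of the high cluster, vehicle mouse 3 in the first and vehicle mice 4 and 6 in the second. The difference between vehicle and antibody mice in r was not tested.

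Among the 6 antibody mice r of Gpnmb was below 0 with Trem2, Tyrobp, Cd63, Spp1 and Lgals3, and above 0 with Cd9 (0.329) and Fabp5 (0.228). Tyrobp with Cd9 (-0.255) and Cd9 with Lgals3 (-0.165) were also below 0. Antibody mouse 1 had the lowest Gpnmb (14656 normalized counts) and the highest Trem2 (4572), Lgals3 (17693), Spp1 (71955) and Cd63 (5974) of its group. Antibody mouse 2 had the highest Gpnmb (47274). Over the 6 antibody mice r was -0.842 for Gpnmb and Lgals3 (exact permutation p = 0.0417, adjusted over 14 relations 0.073; rho -0.714) and -0.802 for Gpnmb and Trem2 (exact permutation p = 0.0542, adjusted 0.0843; rho -0.543). Neither passed the adjustment. Without antibody mouse 1 they were -0.463 and -0.325, and without the 2 mice farthest from the median of Gpnmb, antibody mice 1 and 3, they were 0.197 and 0.053, so the relations rest on those mice. In the 6 vehicle mice r was 0.971 for Gpnmb and Lgals3 and 0.988 for Gpnmb and Trem2 (exact permutation p = 0.0111 and 0.0083, adjusted 0.0259 for each). By rank neither relation passed, with a rho of 0.771 for each (exact permutation p = 0.1028, adjusted 0.206). Without vehicle mice 1 and 2, the farthest from the median of Gpnmb, r was 0.93 and 0.946. The part of the cluster of high values in these vehicle relations was not tested.

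**Figure D5:**
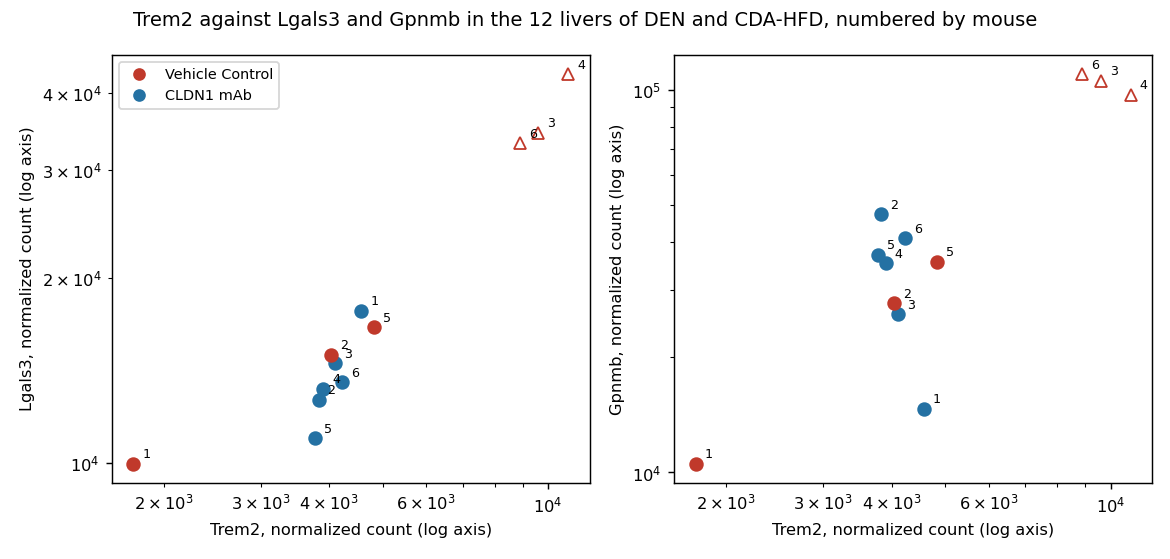
Trem2 against Lgals3 (left) and Gpnmb (right) as normalized counts on log axes in the 12 vehicle and antibody livers, numbered by mouse, with open triangles for vehicle mice 3, 4 and 6. Lgals3 follows Trem2 in both groups, whereas antibody mouse 1 combines the highest Trem2 of its group with its lowest Gpnmb.

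For each of the 8, the genes most like it were found by Pearson's r of the log2 values, centred on the group means, over 17 livers and 12609 candidates. This is a description across genes that share libraries and depth. Trem2 was followed most closely by Mfge8 (r = 0.975), a bridge between dying cells and phagocytes, Pld3 (0.974), a lysosomal nuclease, and the leukocyte tetraspanin Cd37 (0.969). Tyrobp was followed by Cd300c2 (0.982), Cyth4 (0.981) and Pld4 (0.968), and Lgals3 by Tnfaip8l2 (0.978), the complement gene C1qb (0.966) and the phagosomal metal transporter Slc11a1 (0.959). Slc11a1 (0.954) also followed Fabp5, with Cyth4 and Plcb2 (0.957 each). The closest to Gpnmb were Sdc3 (0.948), the complement receptor C3ar1 (0.944) and Specc1 (0.942). Cd9 had Tspan13 (0.974), Gltp (0.973) and Hk3 (0.968), and Cd63 had Gpsm3 (0.957) and Rac2 (0.955) among its closest. Spp1 had Scara3 (0.944), Tmem231 (0.938) and the claudin gene Cldn4 (0.937), which is among the cholangiocyte markers counted below.

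The partners of the 8 genes were counted by role in vehicle against regular diet, where 29.8% of all genes tested were called higher and 20.7% lower. Without vehicle mice 3, 4 and 6 these shares were 21.6% and 12%. The lists were chosen with earlier results of these data known, so their counts are a description and no test. Of 22 genes of TREM2 and TYROBP signalling 19 were higher, 1 lower and 2 not called, with a median log2 difference of 2.29 against 0.04 over all genes. Syk, the kinase bound by TYROBP, was higher by 2.63 (348 ± 82.8 in regular diet against 2279 ± 960 in vehicle, SD). The adaptors Blnk (4.19) and Lat2 (5.04) and the membrane protein gene Ms4a6d (4.11) were higher too, and Sos1, a guanine exchange factor for RAS, was lower (-0.82), though not with the same total per library (-0.19, limma adjusted p = 0.631). A list of 16 other genes, called the other TYROBP receptors below, held receptors that signal through TYROBP, relatives such as Treml1 and an adaptor gene. Of the 16 genes 15 were higher and 0 lower, led by Clec5a (5.01) and Cd300lb (4.83). Treml1 (4.66) had under 1 normalized count on average in regular diet. Of the signalling genes 15 of 22 and of the receptors 12 of 16 were higher, and 0 lower, without vehicle mice 3, 4 and 6.

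Of 34 other genes of the lipid-associated macrophage programme, 28 were higher, 1 lower and 5 not called, with a median of 2.24. Mmp12, the macrophage elastase, went from 81.3 ± 32.6 to 38410 ± 21510 normalized counts (SD), a log2 difference of 8.73 (limma adjusted p = 2.31e-11). Il1rn, the interleukin-1 receptor antagonist, was higher by 4.21, Clec7a, a receptor for fungal glucans, by 5.01, and Lpl, lipoprotein lipase, by 3.74. Creg1, a lysosomal glycoprotein gene, was lower (-0.37), but this turned with quantile normalization (0.54) and with the same total per library (0.26), under which 33 and 31 genes of the list were called higher and 0 lower. The list had 27 of 34 higher and 0 lower without vehicle mice 3, 4 and 6.

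Receptors for osteopontin were higher in 6 of 10 cases and lower in 0, against 29.8% and 20.7% of all genes, and higher in 4 without vehicle mice 3, 4 and 6. Cd44 went from 421 ± 176 to 3942 ± 1616 normalized counts (log2 difference 3.23), and the integrin chains Itgb6 (5.06) and Itga8 (3.18) were higher. Of 15 MiT/TFE factors and lysosomal targets 8 were higher and 0 lower, with a median of 0.28, 14 were higher with the same total per library, and 5 without vehicle mice 3, 4 and 6. Rragd (4.31) and Hexa (1.64) were among the higher.

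In the gene families of Fabp5, Lgals3 and the tetraspanins, members moved in both directions on the deposited scale with all 6 vehicle mice. Of 11 other genes of the fatty acid binding protein family 6 were tested, 4 higher and 1 lower. Fabp4, the adipocyte and macrophage form, was higher (2.49), and Fabp1, the hepatocyte form, was lower (316800 ± 242800 against 97080 ± 67650 normalized counts, log2 difference -1.79, limma adjusted p = 0.00716). Of 9 other galectin genes, galectin-binding Lgals3bp included, 6 were tested, 3 higher, Lgals1 (2.12) and Lgals3bp (1.17) among them, and 1 lower, Lgals9 (-1.09). Of 18 other tetraspanin entries tested, 8 were higher and 3 lower, but 1 of the 8 was the pseudogene Cd63-ps, which can share reads with Cd63. Without it 7 of 17 were higher, Tspan8 (5.17) and the leukocyte gene Cd53 (3.34) among them, and 3 lower, Tspan33 (-1.64) among them. Tspan33 was lower under each scaling tried. Quantile normalization lost the calls of Fabp1 (-0.56, limma adjusted p = 0.148) and Lgals9 (-0.20, 0.389), and the same total per library that of Lgals9 (-0.47, limma adjusted p = 0.069). Without vehicle mice 3, 4 and 6 the lower calls of Fabp1 and Lgals9 were lost too. The fatty acid binding protein family then had 4 of 6 higher and 0 lower, and the galectins 3 of 6 and 0. Of the 18 tetraspanin entries, Cd63-ps included, 8 were higher and 1 lower.

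Markers of other cell types were counted in the same comparison, to be read against the 29.8% of all genes called higher and 20.7% lower. Pan-macrophage markers were higher in 16 of 18 cases (summed level 13700 to 41900 normalized counts in regular diet and 74900 to 248000 in vehicle livers). Of 17 Kupffer cell markers, those of the resident macrophages, 2 were higher and 8 lower (44400 to 100000 against 31700 to 44500). Timd4 fell from 438 ± 117 to 22.2 ± 17.4 (log2 difference -4.52) and Cd163 by 4.87 on the log2 scale. Monocyte markers were higher in 12 of 15 and lower in 3 (98900 to 134000 against 47900 to 78900, a sum in which the fibronectin gene Fn1, at 77440 against 41890, and the clotting factor gene F10, at 33490 against 11720, were the most abundant and both lower), with Cx3cr1 (5.03) and Ccr2 (4.18) among the higher.

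Cholangiocyte markers, of the bile ducts that also make osteopontin, were higher in 15 of 18 (9690 to 10700 against 8210 to 25200 normalized counts), with Epcam at 4.71. Stellate cell and myofibroblast markers were higher in 10 of 16 and lower in 1 (20100 to 33000 against 38000 to 155000), with Col1a1 at 5.04. Neutrophil markers were higher in 9 of 13 (193 to 992 against 2200 to 6240), dendritic cell markers in 10 of 13 (7560 to 29300 against 6030 to 10800) and T and NK cell markers in 11 of 13 (341 to 786 against 1060 to 2690). Osteoclast markers were higher in 5 of 8 and lower in 1 (7210 to 21800 against 8310 to 26100), with Atp6v0d2 at 5.87 and Ctsk at 5.90. Some genes stand in more than 1 list, so the counts are not separate. Atp6v0d2 and Ctsk, and Cd68 of the pan-macrophage list, are also among the 34 other genes of the programme. B and plasma cell markers, higher in 2 of 9 (11300 to 31500 against 11600 to 23500), and endothelial markers, higher in 2 and lower in 4 of 15 (16500 to 22000 against 6210 to 29500), were near the shares over all genes. Hepatocyte markers were lower in 12 of 17 and higher in 1 (3190000 to 7180000 against 888000 to 3510000). With quantile normalization 4 were lower and 3 higher, and with the same total per library 7 and 1. The 1 higher gene had a log2 difference of 7.85 at means of 10010 ± 13720 and 16070 ± 9849 (SD), so it rested on very low values in some regular diet livers. Whether its estimate failed there was not tested. Without vehicle mice 3, 4 and 6, the counts of higher genes were 12 of 18 for pan-macrophage, 10 of 15 for monocyte, 14 of 18 for cholangiocyte, 6 of 16 for stellate cell, 6 of 13 for neutrophil, 8 of 13 for dendritic cell and 11 of 13 for T and NK cell markers. Those of lower genes were 9 of 17 for Kupffer cell and 5 of 17 for hepatocyte markers. Osteoclast markers then had 4 of 8 higher and 0 lower, and B and plasma cell markers 1 of 9 higher and 0 lower. Of 15 endothelial markers 1 was higher and 4 were lower. No marker of these lists was at 0 in all libraries except Alb. The part of each cell type in the levels of the 8 genes was not tested.

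Between antibody and vehicle livers no gene of any of these lists was called. The median log2 difference was -0.33 for TREM2 and TYROBP signalling, -0.46 for the other TYROBP receptors, -0.28 for the other genes of the programme and -0.35 for the osteopontin receptors, against -0.54 for the 8 genes. Medians of cell type markers reached -0.52 for neutrophil, -0.47 for monocyte, -0.43 for dendritic and endothelial cell, -0.42 for B and plasma cell and -0.41 for stellate cell markers, with -0.29 for pan-macrophage markers. The gene of smallest p was Syk (-0.50), Treml1 (-1.22), Lpl (-0.57), Itgb3 (-0.90) and Ptprc (-0.59) in the 4 lists of partners and the pan-macrophage list, with limma adjusted p-values of 0.659 to 0.676. Hepatocyte markers had a median of 0.60, with 17 of 17 above 0. Without vehicle mice 3, 4 and 6 these medians were 0.05 for the 8 genes, 0.15 for signalling, -0.07 for the other TYROBP receptors, 0.17 for the programme, 0.07 for the osteopontin receptors, 0.03 for neutrophil, 0.32 for pan-macrophage and -0.10 for hepatocyte markers, of which 5 of 17 were above 0.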

How the data were processed

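Groups were taken from the sample titles. The deposited table gave a signal for each gene in each library: counts that cuffnorm had normalized, per the labels. The submitters' processing notes name Cufflinks 2.2.1 and mm10. Aligner, annotation, strand setting and scaling option: not given in the sources used here. Symbols and positions came from GENCODE M21 (GRCm38). Genes with at least 10 normalized counts in 5 libraries (18624) were set to log2(value + 1), which shrinks the differences of low genes, and fitted with limma-trend (limma 3.58.1, R 4.3.3). All 17 libraries entered, with group as the covariate. P-values were two-sided and adjusted (Benjamini-Hochberg) over the genes tested. The fit was tested on simulated data. Single values were compared by two-sided exact permutation tests, and relations between members by 100000 permutations. P-values cover only the spread between the mice sampled. The members and gene lists were chosen with earlier results of these data known. Genes named from a list are the 3 of smallest p in vehicle against regular diet, 1 of the opposite direction and 1 of smallest p between antibody and vehicle; Cps1, Fn1, F10 and Cd68 are named as checks. Alternatives covered pseudocount, filter, scaling, weights, replicate and library code blocks and left-out libraries. Leaving out vehicle mice 3, 4 and 6 or Cd63-ps and the comparison of spreads were chosen after seeing the data. Of the genes that these rules name, 2 are not reported here.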

Additional observations from a re-analysis of the deposited data

Results flagged for a closer look

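Of 24 sets of values (8 genes in 3 groups), 5 held a library whose distance from the nearest other was large for the range of its group by Dixon's criterion, where chance gives about 1 in 20. Regular diet mouse 1 had the highest Trem2 (309.5 normalized counts against 187 to 212 in the other 4), Fabp5 (9357 against 926 to 3287) and Lgals3 (806 against 159 to 333). Regular diet mouse 5 had the highest Gpnmb (194 against 57.8 to 88.4). Antibody mouse 6 had the highest Cd9 (6240 against 4862 to 5301).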

How the results depend on the processing

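In vehicle against regular diet all 8 genes kept their direction under each alternative, and leaving out vehicle mice 3, 4 and 6 lowered the genes called to 6259. That step takes out the highest vehicle values of each member. In antibody against vehicle it turned Trem2 (0.32), Tyrobp (0.17), Gpnmb (0.53), Cd9 (0.0063), Fabp5 (0.092) and Lgals3 (0.0077), and the median r between members was 0.628. Between antibody and vehicle 2 genes were called with no filter, and 5310 with array weights, 8 members among them. Array weights called 11344 genes in antibody against regular diet. The cause of these shifts was not tested.

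Relative to macrophage markers, the reference of Cd68 alone turned Tyrobp (-0.83) and Cd9 (-1.68) in vehicle against regular diet, Trem2 (0.014), Tyrobp (0.11), Cd9 (0.0048) and Spp1 (0.031) in antibody against vehicle and Tyrobp (-0.72) in antibody against regular diet. Adgre1 and Csf1r as reference turned Fabp5 in vehicle (0.70) and antibody (0.33) and Cd9 in antibody (1.08) against regular diet. Between antibody and vehicle 0 members differed with either reference, 0 without vehicle mice 3, 4 and 6, and 0 to 3 with single mice left out. Leaving out those 3 mice turned Trem2 (0.081) and Gpnmb (0.29) there, and the ratio of the vehicle to the antibody SD of Cd63 (0.57). Leaving out single mice gave -0.050 to 0.13 for Cd9 in vehicle and -0.16 to 0.020 in antibody against regular diet. Antibody against vehicle gave -0.22 to 0.001 for Trem2, -0.12 to 0.062 for Tyrobp and -0.22 to 0.049 for Spp1.

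The main fit treated the mice as unpaired. The correlation of same-numbered mice across genes ran from -0.344 to 0.022 between vehicle and regular diet. It ran from -0.202 to 0.656 between antibody and vehicle and from -0.05 to 0.586 between antibody and regular diet, where 3 of 5 were over 0.1. Mice of different number were not correlated for comparison, so this check cannot decide whether numbers pair the mice. With the replicate block 9188 genes and 8 members were called in vehicle against regular diet, 0 between antibody and vehicle, and 7 members in antibody against regular diet, where Fabp5 (1.12, limma adjusted p = 0.093) was lost, as it was with no filter (0.0709). Over all alternatives for single genes, 803 values kept direction and call, 34 reversed, 31 lost the call, 15 gained it and 5 moved without a test. At an estimated depth of 27690000 fragments or more per library, no member was listed at 0.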
